A study of Mus musculus with 9 samples.

Results

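The genes described here encode the proteasome, the protease that degrades proteins tagged with ubiquitin. A gene was a member if its symbol was Psma, Psmb, Psmc or Psmd followed by a number, with Psmb8 and Psmb9 left out, and if its expected count averaged 10 or more over the 9 libraries. This gave 35 members among the 57010 genes of the table. Another 2 genes had such symbols but too few reads, Psma8, an alpha subunit made in testis, with a mean expected count of 4.22, and Psmb11, a beta subunit made in thymus, with 3.23. The member with the fewest reads was Psmd10 with a mean expected count of 279.8, followed by Psmb10 with 416.9 and Psmd9 with 427, and all 35 members passed the filter on low counts. The hollow core particle is built of rings of alpha subunits (Psma), which gate entry, and beta subunits (Psmb), 3 of which cut peptides. The regulatory particle caps it: its base holds ATPases (Psmc) that unfold substrates, and its base and lid hold the other subunits (Psmd) that bind and remove ubiquitin. In neurons the proteasome sets the turnover of synaptic proteins, and genes for its subunits are known to be transcribed together. Of the members, 31 are constitutive subunits, Psmb10 is an inducible subunit of the immunoproteasome, and Psmd5, Psmd9 and Psmd10 are chaperones that help assemble the base and are not parts of the finished particle.

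The libraries were made from hippocampus of C57BL/6J mice, in 3 groups of 3. CBD mice had an L5 spinal nerve ligated and then received cannabidiol, a non-intoxicating cannabinoid, into the peritoneum at 5 mg/kg for 15 days. SNL mice had the same ligation, which models neuropathic pain, and received solvent. Sham mice had the nerve exposed but not ligated and received solvent. The labels give neither age nor sex, nor whether each library is a mouse of its own, so p-values measure the spread between these libraries, which may be technical. Expected counts summed to 17649909 to 19397904 per CBD library, 16972620 to 18837528 per SNL library and 19547500 to 20470546 per Sham library. Of 5 neuronal markers, Prox1, Wfs1, Neurod6, Rbfox3 and Slc17a7, none was at 0 over all libraries. Their summed level ran from 706 to 1457 CPM in CBD, from 781 to 1405 CPM in SNL and from 1106 to 1946 CPM in Sham. All 8 markers of thalamus and habenula had a higher fitted level in SNL than in Sham (summed 439.9 to 1206 CPM in SNL, 265 to 363 CPM in Sham), as did all 7 markers of endothelium and pericytes (406 to 540.4 CPM in SNL, 295 to 349 CPM in Sham) and all 7 myelin markers (10398 to 14716 CPM in SNL, 8562 to 11597 CPM in Sham). All 5 CA1 markers had a lower fitted level in SNL than in Sham, and also in CBD than in Sham. Their sums were 417, 752 and 787 CPM in CBD 1, 2 and 3, and 423, 463 and 687 CPM in SNL 1, 2 and 3. In Sham 1, 2 and 3 they were 1071, 1066 and 658 CPM, so SNL 3 lay above Sham 3. Of 6 dentate granule markers 5 were lower and 1 higher in SNL (252 to 349 CPM in SNL, 343 to 554 CPM in Sham). Against SNL, CBD had lower fitted levels of all 8 thalamic, all 7 endothelial and all 7 myelin markers. The thalamic sums were 487, 405 and 574 CPM in CBD 1, 2 and 3, and 451, 1206 and 440 CPM in SNL 1, 2 and 3. SNL 2 thus stood apart, and the other SNL libraries lay within the CBD values. All 8 thalamic and all 7 endothelial markers had a higher fitted level in CBD than in Sham. In 3 libraries, CBD 1, SNL 1 and SNL 2, the 8 hypothalamic markers summed to 379, 297 and 65.8 CPM, against at most 7.84 CPM in the other libraries. The same 3 libraries had the lowest CA1 sums. They also had the lowest sums of the 5 neuronal markers, at 706, 781 and 872 CPM, against at least 1106 CPM in the other libraries. The 7 choroid plexus markers summed to 1138.5, 1875 and 1226 CPM in CBD 1, 2 and 3. They summed to 401, 2197 and 262 CPM in SNL 1, 2 and 3, and to 1306, 139 and 958 CPM in Sham 1, 2 and 3. All 7 had a higher fitted level in CBD than in Sham. The part of such tissue in the values below was not tested, and in bulk tissue fewer cells and less RNA per cell cannot be told apart.

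All parts of the particle were expressed in the hippocampus. Levels between genes are given as CPM (counts relative to each library's TMM-scaled total) per kilobase of the principal transcript, averaged over the 9 libraries. The 31 constitutive subunits lay between 23.9 CPM per kb for Psma3 and 112 CPM per kb for Psmc5. The catalytic subunits stood close together, at 90.7 CPM per kb for Psmb5 (ENSMUSG00000022193, chymotrypsin-like site), 81.6 for Psmb6 (ENSMUSG00000018286, caspase-like site) and 85.7 for Psmb7 (ENSMUSG00000026750, trypsin-like site). The 4 other constitutive beta subunits ran from 45.8 CPM per kb for Psmb2 to 99.6 for Psmb4, and the 7 alpha subunits from 23.9 for Psma3 to 73.5 for Psma6. The 6 ATPases spanned the widest range among the constitutive groups, from 32.9 CPM per kb for Psmc6 to 112 for Psmc5, a ratio of 3.41. In the base, the scaffold subunit Psmd1 stood at 38.7 and the ubiquitin receptor Psmd4 at 80.2 CPM per kb. The 8 lid subunits ran from 25.4 for Psmd11 to 56.2 for Psmd7. The inducible Psmb10 stood at 16.9 CPM per kb, and the 3 chaperones were the lowest, with 10.5 for Psmd10, 10.1 for Psmd5 and 8.74 for Psmd9. Lengths come from an older annotation and 15 members had at least 1 non-whole expected count, which RSEM gives where reads fit more than 1 gene, and 4 of them, Psmc2, Psmd2, Psmd11 and Psmd13, had one in every library, so these levels are approximate.

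**Figure D1:**
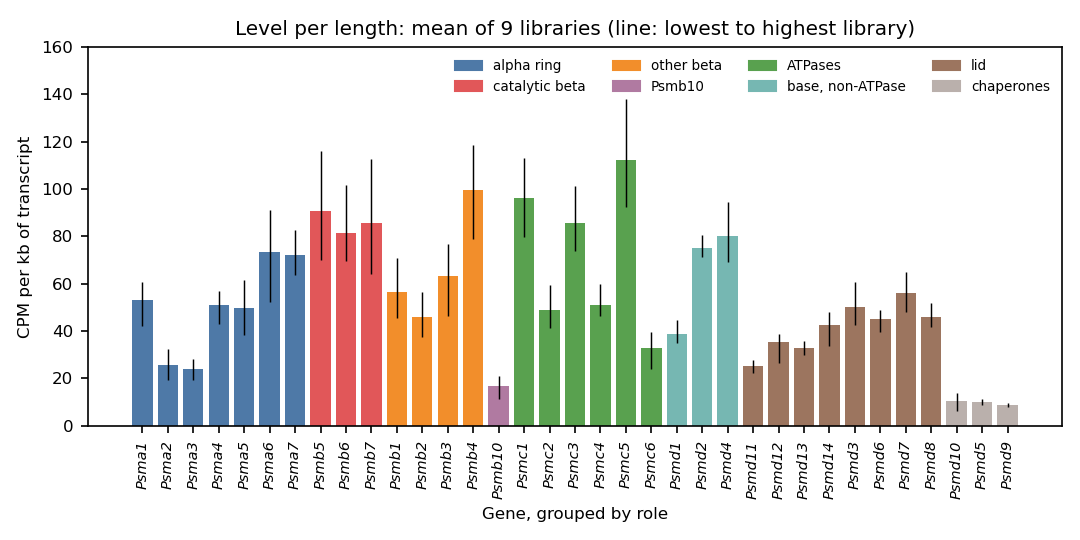
Mean CPM per kilobase of transcript for the 35 proteasome genes, grouped by role; bars are means of 9 libraries and lines run from the lowest to the highest library. Psmb10 and the 3 chaperones lie at 16.9 CPM per kb or less, below every constitutive subunit.

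Promoter windows of RefSeq (build GRCm38.p6, 250 bases before to 50 after the gene's start) were at hand for 29 of the 35 members, in 31 windows. Windows were searched on both strands for the letters TGACNNNGC, the antioxidant response element that the transcription factors Nfe2l1 and Nfe2l2 are known to bind in proteasome genes, for the looser TGANNNNGC that contains it, for CCAAT and for CCGGAAGT, letters of ETS factors. TGACNNNGC stood in 5 of 31 member windows (16.1%) and in 12.4% of the 32851 windows of all genes. TGANNNNGC stood in 17 member windows (54.8%, against 41.3% of all windows) and CCAAT in 11 (35.5%, against 37.4%). CCGGAAGT stood in 7 member windows (22.6%), of Psma6, Psmc1, Psmc2, Psmd6, Psmd12 and Psmd13, and in 3.89% of all windows. By gene this was 6 of 29 members (20.7%) and 4.31% of all genes with a window. One of the Psmc2 windows did not match a transcript start of the annotation used. The 27025 genes with a window were not limited to the genes tested here, so the sets may differ in expression. The 5 windows with TGACNNNGC were those of Psmb5, Psmb6, Psmc6, Psmd9 and Psmd12. A match is a run of letters and does not show that a factor binds there. Below are the promoters of Psmb5 and Psmb6, the members with the smallest p in CBD against SNL, of Psmd10, the member furthest apart in SNL against Sham, and of Psmc1, an ATPase whose window holds CCGGAAGT. Capitals mark TGACNNNGC, CCAAT and CCGGAAGT on either strand. The windows lie at chr14:54617946-54618245 (minus strand), chr11:70525107-70525406 (plus strand), chrX:140956662-140956961 (minus strand) and chr12:100109952-100110251 (plus strand), and each is written 5′ to 3′ along its gene.
Psmb5 promoter: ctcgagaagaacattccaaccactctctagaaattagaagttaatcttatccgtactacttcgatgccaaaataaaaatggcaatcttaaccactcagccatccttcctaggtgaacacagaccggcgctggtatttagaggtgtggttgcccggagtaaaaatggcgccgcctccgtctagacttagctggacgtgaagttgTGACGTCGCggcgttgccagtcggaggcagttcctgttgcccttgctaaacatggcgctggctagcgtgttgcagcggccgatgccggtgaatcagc
Psmb6 promoter: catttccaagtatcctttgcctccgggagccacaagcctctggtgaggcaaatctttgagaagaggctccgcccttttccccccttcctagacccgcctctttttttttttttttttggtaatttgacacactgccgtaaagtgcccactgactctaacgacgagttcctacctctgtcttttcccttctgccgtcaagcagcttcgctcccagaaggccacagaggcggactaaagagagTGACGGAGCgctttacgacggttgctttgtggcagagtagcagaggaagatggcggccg
Psmd10 promoter: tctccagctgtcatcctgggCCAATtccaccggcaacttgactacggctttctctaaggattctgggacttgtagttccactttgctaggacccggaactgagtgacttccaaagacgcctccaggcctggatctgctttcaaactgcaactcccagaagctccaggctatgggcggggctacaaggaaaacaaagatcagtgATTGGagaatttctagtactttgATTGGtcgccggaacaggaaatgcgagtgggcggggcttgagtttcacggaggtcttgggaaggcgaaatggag
Psmc1 promoter: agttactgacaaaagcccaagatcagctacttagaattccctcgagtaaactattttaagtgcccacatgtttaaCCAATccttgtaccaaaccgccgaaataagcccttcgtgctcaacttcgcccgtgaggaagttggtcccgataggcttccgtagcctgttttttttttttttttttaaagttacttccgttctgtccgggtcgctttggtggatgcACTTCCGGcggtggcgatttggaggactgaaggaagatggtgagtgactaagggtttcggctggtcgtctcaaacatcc
In the Psmb5 window the TGACNNNGC letters begin 47 bases before the start, and in the Psmb6 window 9 bases before it. The Psmd10 window has neither TGACNNNGC nor CCGGAAGT and holds CCAAT letters 3 times, while the Psmc1 window has CCGGAAGT on the opposite strand, beginning 29 bases before the start.

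Of the 35 members, 17, 15 and 10 lay above their own mean in CBD 1, 2 and 3, 30, 9 and 32 in SNL 1, 2 and 3, and 3, 23 and 21 in Sham 1, 2 and 3, so SNL 2 went against the other SNL libraries. For each library the median over the 35 members of log2 CPM minus the gene's own mean was taken, and it was -0.018, -0.028 and -0.078 in CBD 1, 2 and 3, 0.15, -0.029 and 0.19 in SNL 1, 2 and 3, and -0.22, 0.053 and 0.01 in Sham 1, 2 and 3. By group this position was -0.041 ± 0.032 in CBD, 0.10 ± 0.12 in SNL and -0.053 ± 0.15 in Sham (mean ± SD, n = 3 each). SNL 1 and SNL 3 were high, Sham 1 was low, and SNL 2 lay among the CBD and Sham libraries, so the groups overlapped. Of the 35 members, 20 had their highest CPM in SNL 3 and 9 in SNL 1, while 21 had their lowest in Sham 1 and 9 in CBD 3. The summed level of the members was 2808, 2760.2 and 2673 CPM in the CBD libraries, 3118, 2737 and 3202 CPM in the SNL libraries and 2488, 2883 and 2855 CPM in the Sham libraries. The ratio of highest to lowest library ranged from 1.13 for Psmd2 to 2.17 for Psmd10 with a median of 1.44, and it was below 1.5 for 23 of the 35 members.

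**Figure D2:**
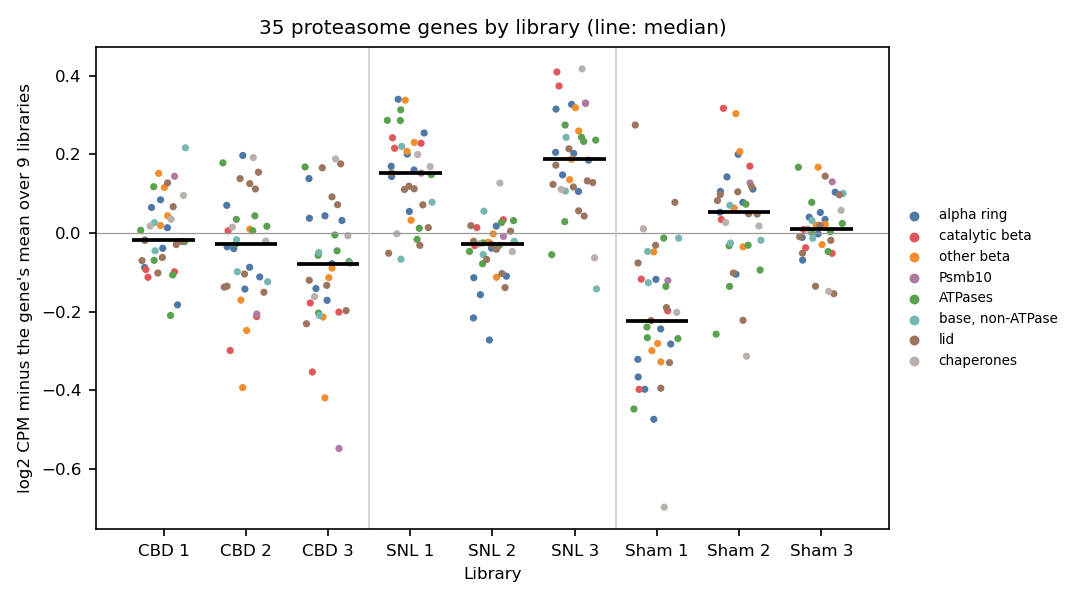
Each point is 1 of the 35 proteasome genes in 1 library, as log2 CPM minus that gene's mean over the 9 libraries, coloured by role; black lines are medians. The median is highest in SNL 3 (0.19) and SNL 1 (0.15) and lowest in Sham 1 (-0.22).

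The libraries also differed in trends over all tested genes. The trend on transcript length went along with these positions, a link that was not tested. Over all tested genes, the slope of log2 level on transcript length was -0.068 in SNL 1, -0.104 in SNL 3 and 0.075 in Sham 1 per doubling of length, and between -0.037 and 0.064 in the other 6 libraries. The slope on GC content per 10 percentage points was -0.051, -0.155 and -0.255 in the CBD libraries, -0.051, 0.107 and 0.032 in the SNL libraries and 0.27, 0.074 and 0.029 in the Sham libraries. The GC slope was highest in Sham 1 and lowest in CBD 3, while the members' position was below 0 in both (-0.22 and -0.078). Members have short transcripts, with a median of 1526 bases against 2778 over all tested genes, and a median GC content of 49.5% against 49.98%. With both trends removed (written below as with offsets, for GC content and length), the members' position became -0.016, -0.012 and -0.003 in the CBD libraries, 0.086, -0.036 and 0.095 in the SNL libraries and -0.134, 0.058 and 0.029 in the Sham libraries. The order of the outlying libraries was kept at a smaller distance. Medians of cytosolic ribosomal protein genes were 0.35 in SNL 1, 0.33 in SNL 3, -0.27 in Sham 1 and -0.45 in CBD 3, and those of oxidative phosphorylation genes 0.24, 0.37, -0.34 and -0.34 in the same libraries. The median of 16 heat shock protein genes was 0.075 in SNL 1, 0.001 in SNL 3, -0.18 in Sham 1 and 0.063 in CBD 3. Mitochondrial transcripts made up 4.52%, 6.37% and 6.65% of the counts in the CBD libraries, 6.29%, 4.76% and 5.5% in the SNL libraries and 3.2%, 4.56% and 4.31% in the Sham libraries, and their part in the members' values was not tested.

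**Figure D3:**
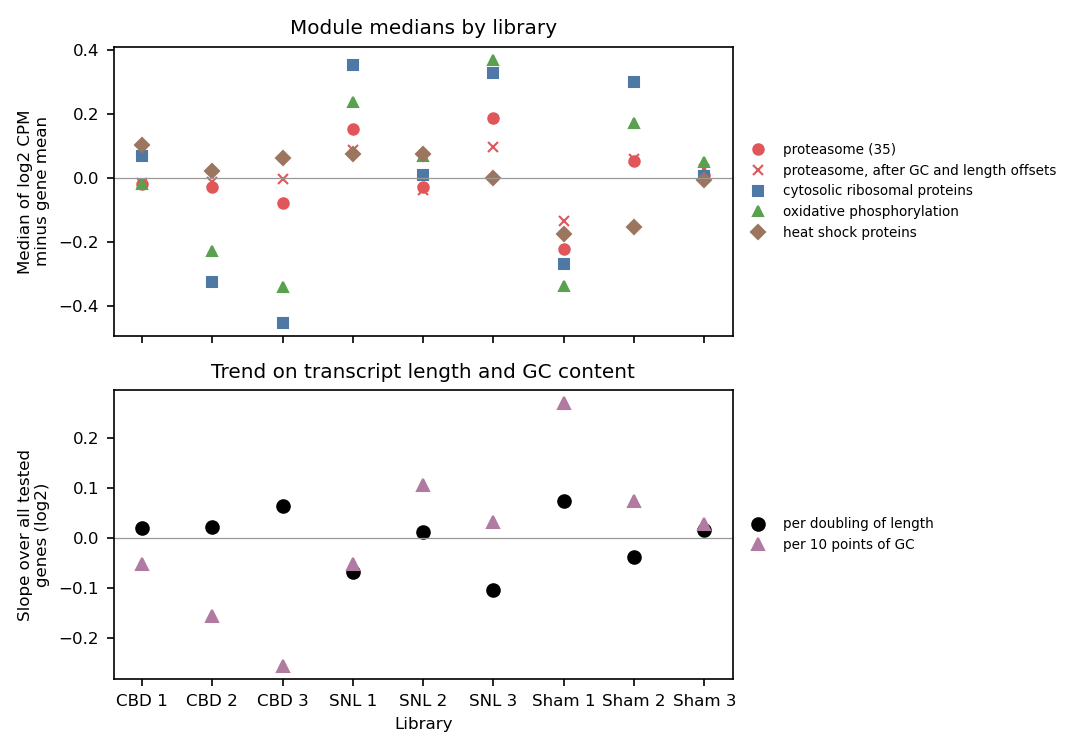
Top, median of log2 CPM minus gene mean per library for the proteasome before and after offsets for GC content and length, and for 3 other gene groups. Bottom, slope of all tested genes on transcript length and GC content in the same libraries; the length slope is lowest in SNL 3 (-0.104) and SNL 1 (-0.068).

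SNL against Sham asks what nerve ligation changed. The fitted level was higher in SNL for 30 of 35 members, with a median log2 fold change of 0.14, against a median of 0.01 and 51.6% of genes above 0 over all genes tested. By part, all 7 alpha subunits, 7 of 8 beta subunits and all 6 ATPases were above 0, with medians of 0.15 for the alpha ring, 0.22 for the catalytic subunits and 0.20 for the ATPases. The 3 base subunits other than ATPases had a median of -0.022, and the 8 lid subunits 0.075. Of other gene groups, 73 of 76 cytosolic ribosomal protein genes (median 0.20), 69 of 70 oxidative phosphorylation genes (median 0.26) and 13 of 16 heat shock protein genes (median 0.16) were above 0. With offsets the medians of these groups were 0.125, 0.164 and 0.12. None of the members passed the threshold: edgeR's quasi-likelihood test called 0 of 35 members and 0 of 17967 genes (0%) at an adjusted p under 0.05, and DESeq2 called 363 genes, among them 1 member, Psmd10. At an unadjusted p under 0.05, 6 members were higher, Psmb7, Psmc1, Psmc5, Psmd4, Psmd7 and Psmd10, and 0 lower, where 5.83% of all genes were higher and 7.96% lower. For 5 members every SNL library lay above every Sham library (7.94% of all genes), and for 0 members below (9.81%). Leaving out Sham 1 gave a median of 0.056, leaving out SNL 3 gave 0.094 and leaving out SNL 2 gave 0.22, while offsets for GC content and length gave 0.072. The count of 6 became 1 without CBD 2 (4.83% of all genes higher), SNL 1 (4.09%), SNL 3 (5.83%) or Sham 1 (3.59%). It became 10 without SNL 2 (5.18%), and 1 with only the 6 libraries compared (5.28%). Without CBD 1 it was 5 (6.8%), without CBD 3 or Sham 2 it was 4 (5.26% and 4.01%), and without Sham 3 it was 7 (9.25%).

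CBD and SNL mice were both ligated, and differed by design in receiving cannabidiol or solvent. The fitted level was lower in CBD for 28 of 35 members, with a median log2 fold change of -0.15, against -0.001 and 50.1% of genes below 0 (49.9% above) over all genes tested. The 3 catalytic subunits had a median of -0.37 (-0.15 with offsets), the 4 other constitutive beta subunits -0.21 (-0.070), Psmb10 alone -0.34 (-0.109), the alpha ring -0.15 (-0.040) and the ATPases -0.13 (-0.085). The lid had a median of -0.094 (0.014 with offsets), the base subunits other than ATPases -0.010 (-0.049) and the chaperones -0.069 (-0.16). Other gene groups were further below 0, with 74 of 76 cytosolic ribosomal protein genes (median -0.45) and 67 of 70 oxidative phosphorylation genes (median -0.44) lower in CBD, while 16 heat shock protein genes had a median of 0.010. With offsets the medians of these 3 groups were -0.258, -0.246 and -0.04. The edgeR test called 0 members and 0 of 17967 genes (0%), and DESeq2 called 0 members and 156 genes. At an unadjusted p under 0.05, 0 members were higher (6.5% of all genes) and 4 lower (7.2% of all genes), namely Psmb5, Psmb6, Psmd4 and Psmb3. Every CBD library lay below every SNL library for 9 members (10.1% of all genes) and above for 1, Psmd6 (9.18%). With offsets the median was -0.054, and at an unadjusted p under 0.05 there were 3 members lower (3.95% of all genes with offsets), Psma2, Psma3 and Psmd11, and 0 higher (2.73%). None of those 3 was among the 4 named before. Leaving out CBD 1, SNL 1 and SNL 2 gave a median of -0.24, with SNL 3 as the only SNL library left. The count of 4 became 8 without SNL 2 (6.1% of all genes lower) and 7 without CBD 1 (10.9%). It became 3 without CBD 2 (3.49%), CBD 3 (2.98%), SNL 1 (5.69%) or SNL 3 (5.49%). Without Sham 1 or Sham 3 it was 5 (7.21% and 7.14%), and without Sham 2 it stayed at 4 (6.87%).

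CBD against Sham sets ligated and treated mice beside mice never ligated. Here 17 members had a higher fitted level in CBD (50.1% of all genes) and 18 a lower one (49.9%), with a median log2 fold change of -0.005 against 0.001 over all genes tested. The median was -0.25 for ribosomal protein genes (-0.176 with offsets), -0.19 for oxidative phosphorylation genes (-0.041) and 0.14 for heat shock protein genes (0.1). The edgeR test called 0 members and 0 of 17967 genes (0%), and DESeq2 called 0 members and 380 genes. At an unadjusted p under 0.05, 1 member, Psmd10, was higher (7.41% of all genes) and 3, Psmb3, Psmd3 and Psmb5, were lower (8.87% of all genes). Every CBD library lay above every Sham library for 4 members, Psma6, Psmd6, Psmd7 and Psmd10 (10.6% of all genes), and below for 3, Psmd3, Psmd11 and Psmd13 (11.1%). The count of 3 lower members became 0 without CBD 2 (5.93% of all genes lower) or CBD 3 (5.9%), and 5 without CBD 1 (10.7%). It became 1 without Sham 2 (6.18%), and 2 without Sham 1 (5.48%) or SNL 1 (7.92%). Without SNL 2, SNL 3 or Sham 3 it stayed at 3 (8.95%, 8.44% and 10.5%). With only the 6 libraries compared it was 2 (8%). With offsets the median was 0.006. At an unadjusted p under 0.05 with offsets, 2 members were higher, Psmd7 and Psmd10 (3.15% of all genes). On the lower side there were 3, Psma3, Psmb3 and Psmd11 (3.66%), so Psmd3 and Psmb5 were no longer among them. The 3 comparisons share libraries in pairs, so their values are not independent of each other.

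**Figure D4:**
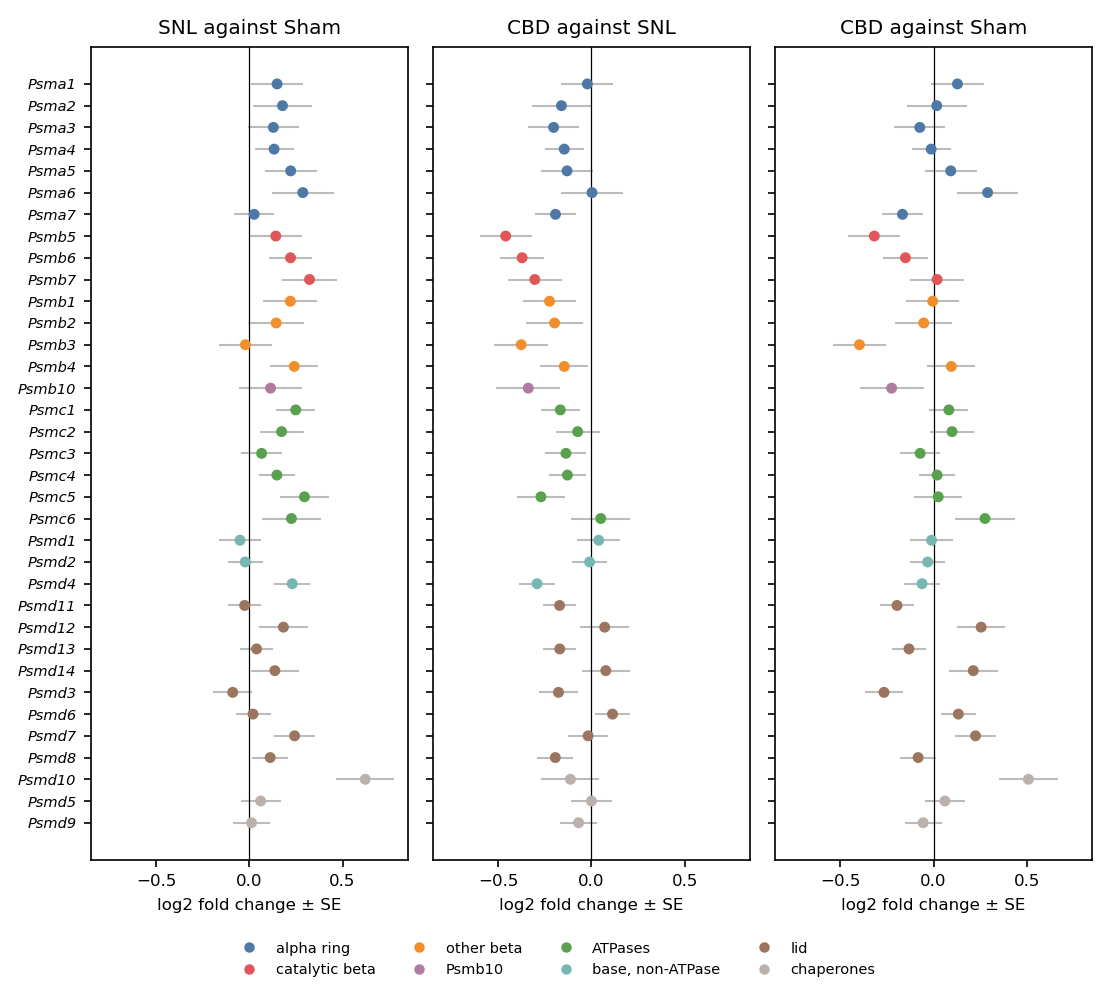
Log2 fold change with its standard error for each of the 35 proteasome genes in the 3 comparisons, coloured by role. In SNL against Sham 30 genes lie above 0, in CBD against SNL 28 lie below 0, and in CBD against Sham 18 lie below 0; no gene passed an adjusted p under 0.05 by edgeR.

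Among the catalytic subunits, Psmb5 had 74.3, 65.3 and 62.9 CPM in the CBD libraries, 93.3, 81.1 and 104 CPM in the SNL libraries and 74.1, 100.1 and 78.3 CPM in the Sham libraries. Every CBD library lay below every SNL library, and Sham overlapped both. The log2 fold change of Psmb5 was -0.46 for CBD against SNL (SE 0.14, adjusted p = 0.306; -0.15 with offsets), 0.14 for SNL against Sham (SE 0.14, adjusted p = 0.681; 0.048 with offsets) and -0.32 for CBD against Sham (SE 0.14, adjusted p = 0.297; -0.11 with offsets). Psmb6 had 60.3, 55.7 and 56.1 CPM in the CBD libraries, 75.6, 66.05 and 81.1 CPM in the SNL libraries and 56.2, 72.6 and 62.2 CPM in the Sham libraries. Again CBD lay below SNL throughout while Sham overlapped both, and the log2 fold change was -0.37 for CBD against SNL (SE 0.12, adjusted p = 0.306; -0.067 with offsets), 0.22 for SNL against Sham (SE 0.12, adjusted p = 0.433; 0.11 with offsets) and -0.15 for CBD against Sham (SE 0.12, adjusted p = 0.544; 0.044 with offsets). Psmb7 had 92.1, 98.7 and 86.9 CPM in the CBD libraries, 116, 96.1 and 131 CPM in the SNL libraries and 74.6, 101 and 98.9 CPM in the Sham libraries. SNL 2 lay below CBD 2, so the groups overlapped, with a log2 fold change of -0.30 for CBD against SNL (SE 0.14, adjusted p = 0.384), 0.32 for SNL against Sham (SE 0.14, adjusted p = 0.359; 0.21 with offsets) and 0.019 for CBD against Sham (SE 0.14, adjusted p = 0.964; 0.001 with offsets). Here and below, adjusted p-values are from edgeR's quasi-likelihood test unless another is named. The adjusted p of the 3 genes ran from 0.297 to 0.964.

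**Figure D5:**
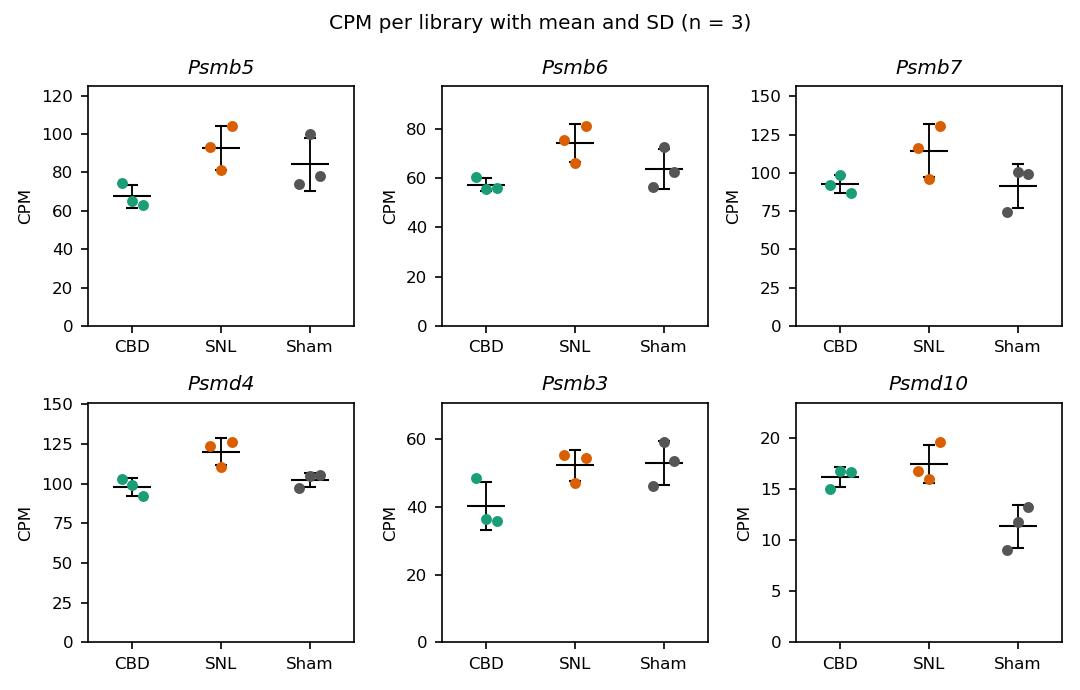
CPM of the 3 catalytic subunits, the ubiquitin receptor Psmd4, the beta subunit Psmb3 and the chaperone Psmd10; points are libraries, bars the mean and SD (n = 3 per group). For Psmb5, Psmb6 and Psmd4 each CBD library lies below each SNL library, and for Psmd10 each CBD and each SNL library lies above each Sham library.

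The other constitutive beta subunits form the ring but do not cut. Of these, Psmb3 had 48.3, 36.3 and 35.7 CPM in the CBD libraries. It had 55.1, 46.9 and 54.3 CPM in the SNL libraries and 46.1, 58.9 and 53.6 CPM in the Sham libraries. CBD 2 and CBD 3 were the lowest of all, while CBD 1 lay within the SNL and Sham values. The log2 fold change was -0.38 for CBD against SNL (SE 0.14, adjusted p = 0.324; -0.12 with offsets) and -0.40 for CBD against Sham (SE 0.14, adjusted p = 0.238), and -0.021 for SNL against Sham (SE 0.14, adjusted p = 0.962; -0.14 with offsets). Without CBD 1 it was -0.54 against SNL and -0.56 against Sham. Psmb4 had 121, 118 and 109.98 CPM in the CBD libraries, 137, 108 and 140.1 CPM in the SNL libraries and 93.2, 114 and 119 CPM in the Sham libraries. Psmb2 had 42.2, 32.8 and 36.02 CPM in the CBD libraries, 39.9, 38.9 and 48.6 CPM in the SNL libraries and 32.1, 44.99 and 38.2 CPM in the Sham libraries. For both, SNL 3 was high and Sham 1 low, and all groups overlapped. The inducible Psmb10 had 24.1, 18.9 and 14.9 CPM in the CBD libraries. In the SNL libraries it had 24.3, 21.7 and 27.5 CPM, and in the Sham libraries 20.1, 23.9 and 23.9 CPM. This subunit, which replaces Psmb7 in the immunoproteasome, was lowest in CBD 3 with overlap of all groups, and its log2 fold change was -0.34 for CBD against SNL (SE 0.17, adjusted p = 0.406; -0.11 with offsets). In the alpha ring, Psma6 had 80.1, 86.6 and 77.9 CPM in the CBD libraries, 86.8, 62.6 and 94.8 CPM in the SNL libraries and 54.4, 70.3 and 75.5 CPM in the Sham libraries. CBD lay above Sham in every library, with SNL spread across both, and the log2 fold change was 0.29 for CBD against Sham (SE 0.17, adjusted p = 0.401). Psma3 had 59.4, 62.4 and 68.9 CPM in the CBD libraries, 80.4, 62.5 and 76.7 CPM in the SNL libraries and 55.4, 72.8 and 72.4 CPM in the Sham libraries. Its groups overlapped, and its log2 fold change for CBD against SNL was -0.20 without and -0.36 with offsets, and its transcript has a GC content of 40.8%.

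Among the ATPases that unfold substrates, Psmc1 had 150.3, 154 and 145 CPM in the CBD libraries, 169, 156 and 179.8 CPM in the SNL libraries and 127, 143 and 155 CPM in the Sham libraries. SNL lay above both other groups in every library, and the log2 fold change was 0.25 for SNL against Sham (SE 0.10, adjusted p = 0.334) and -0.17 for CBD against SNL (SE 0.10, adjusted p = 0.505). Psmc5 had 139.5, 149.96 and 127 CPM in the CBD libraries, 182, 144 and 177 CPM in the SNL libraries and 122, 133 and 155 CPM in the Sham libraries. SNL 2 lay within the CBD and Sham values, and the log2 fold change was 0.30 for SNL against Sham (SE 0.13, adjusted p = 0.349) and -0.27 for CBD against SNL (SE 0.13, adjusted p = 0.384; -0.14 with offsets). Psmc6 had 73.04, 82.3 and 81.7 CPM in the CBD libraries, 88.7, 70.4 and 69.96 CPM in the SNL libraries and 53.3, 60.8 and 81.6 CPM in the Sham libraries. The low values were those of Sham 1 and Sham 2, with overlap of all groups and a log2 fold change of 0.28 for CBD against Sham (SE 0.16, adjusted p = 0.408; -0.036 with offsets).

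In the base, Psmd4 is a receptor for ubiquitin chains. Psmd4 had 103, 99.3 and 91.9 CPM in the CBD libraries, 124, 110.5 and 126 CPM in the SNL libraries and 97.4, 104 and 105 CPM in the Sham libraries. SNL lay above CBD and above Sham without overlap, while CBD and Sham overlapped. The log2 fold change was 0.23 for SNL against Sham (SE 0.095, adjusted p = 0.325) and -0.29 for CBD against SNL (SE 0.095, adjusted p = 0.306; -0.091 with offsets). The large scaffold subunits Psmd1 and Psmd2 had among the smallest fold changes. Psmd1 had 139, 110.1 and 114 CPM in the CBD libraries, 127, 118 and 109 CPM in the SNL libraries and 119, 118 and 129 CPM in the Sham libraries. Psmd2 had 226, 219 and 214 CPM in the CBD libraries, 212, 213 and 239 CPM in the SNL libraries and 214, 233 and 227 CPM in the Sham libraries. Groups overlapped for both genes in every comparison, and their log2 fold changes lay between -0.050 and 0.039 with an adjusted p of at least 0.874.

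In the lid, Psmd7 had 82.4, 97.3 and 99.2 CPM in the CBD libraries, 95.5, 84.4 and 103 CPM in the SNL libraries and 75.8, 82.4 and 80.5 CPM in the Sham libraries. This partner of the deubiquitinase subunit Psmd14 was higher in every SNL and every CBD library than in every Sham library, though CBD 1 and Sham 2 were nearly equal, with a log2 fold change of 0.24 for SNL against Sham (SE 0.11, adjusted p = 0.362) and 0.23 for CBD against Sham (SE 0.11, adjusted p = 0.337). Psmd14 had 64.05, 72.8 and 73.8 CPM in the CBD libraries, 68.7, 59.4 and 71.7 CPM in the SNL libraries and 52.01, 70.9 and 58.7 CPM in the Sham libraries. Its groups overlapped. Psmd3 had 103, 97.8 and 91.7 CPM in the CBD libraries, 104, 109 and 117 CPM in the SNL libraries and 130.2, 114 and 107 CPM in the Sham libraries. Every CBD library lay below every SNL and every Sham library, and the log2 fold change was -0.27 for CBD against Sham (SE 0.10, adjusted p = 0.26; -0.017 with offsets) and -0.18 for CBD against SNL (SE 0.10, adjusted p = 0.476; 0.028 with offsets). Psmd11 had 55.9, 51.1 and 49.5 CPM in the CBD libraries, 57.3, 56.9 and 61.99 CPM in the SNL libraries and 59.9, 58.6 and 60.7 CPM in the Sham libraries. This subunit, which helps hold the core and regulatory particles together, was also lowest in the CBD libraries, with a log2 fold change of -0.20 for CBD against Sham (SE 0.090, adjusted p = 0.313) and -0.17 for CBD against SNL (SE 0.090, adjusted p = 0.421). Psmd6 had 65.7, 67.8 and 65.9 CPM in the CBD libraries, 61.3, 58.4 and 64.6 CPM in the SNL libraries and 54.97, 64.9 and 61.9 CPM in the Sham libraries. CBD lay above both other groups in every library, by a log2 fold change of 0.11 for CBD against SNL (SE 0.094, adjusted p = 0.622) and 0.13 for CBD against Sham (SE 0.094, adjusted p = 0.497; 0.060 with offsets). Psmd12 had 72.7, 72.6 and 70.9 CPM in the CBD libraries, 71.9, 64.6 and 69.2 CPM in the SNL libraries and 50.6, 57.02 and 73.5 CPM in the Sham libraries. Sham 1 and Sham 2 were low and Sham 3 was high, so CBD and Sham overlapped, and the log2 fold change was 0.26 for CBD against Sham (SE 0.13, adjusted p = 0.357; 0.10 with offsets).

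The 3 assembly chaperones did not share a pattern. Psmd10 had 15.00, 16.7 and 16.7 CPM in the CBD libraries, 16.8, 15.99 and 19.5 CPM in the SNL libraries and 9.03, 11.8 and 13.2 CPM in the Sham libraries. Psmd10, also called gankyrin (ENSMUSG00000031429), is an ankyrin-repeat chaperone of the ATPase Psmc4. Each CBD and each SNL library lay above each Sham library, and CBD and SNL overlapped. Group means were 16.1 ± 0.983 CPM in CBD, 17.4 ± 1.87 CPM in SNL and 11.3 ± 2.12 CPM in Sham (SD, n = 3 each). The log2 fold change of Psmd10, the only one among the members above 0.5 in size, was 0.62 for SNL against Sham (SE 0.16, adjusted p = 0.22), 0.51 for CBD against Sham (SE 0.16, adjusted p = 0.213; 0.32 with offsets) and -0.11 for CBD against SNL (SE 0.15, adjusted p = 0.775). The DESeq2 Wald test gave an adjusted p of 0.0323 for SNL against Sham, and edgeR with offsets for GC content and length gave log2 fold changes of 0.48 for that comparison and 0.32 for CBD against Sham. Without Sham 1, the library where Psmd10 was lowest, the log2 fold change was 0.48 for SNL against Sham and 0.37 for CBD against Sham. Psmd5 had 47.3, 43.7 and 44.1 CPM in the CBD libraries, 49.8, 42.9 and 42.4 CPM in the SNL libraries and 38.5, 44.8 and 46.1 CPM in the Sham libraries. Psmd9 had 22.96, 22.9 and 20.3 CPM in the CBD libraries, 22.6, 22.2 and 24.5 CPM in the SNL libraries and 22.8, 23.1 and 22.8 CPM in the Sham libraries. Both had overlapping groups in every comparison and log2 fold changes between -0.069 and 0.061. The other 11 members, Psma1, Psma2, Psma4, Psma5, Psma7, Psmb1, Psmc2, Psmc3, Psmc4, Psmd8 and Psmd13, had log2 fold changes between -0.225 and 0.222 and an unadjusted p above 0.05 in each comparison.

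Other genes of the pathway were taken from 7 lists, 45 genes in all, none of which passed an adjusted p under 0.05 by edgeR (smallest 0.232, 0.306 and 0.213 for SNL against Sham, CBD against SNL and CBD against Sham). At an unadjusted p under 0.05, 3 were higher and 2 lower in SNL than in Sham (5.83% and 7.96% of all genes), 3 higher and 8 lower in CBD than in SNL (6.5% and 7.2%), and 2 higher and 5 lower in CBD than in Sham (7.41% and 8.87%). The transcription factor that raises proteasome genes when proteolysis is blocked, Nfe2l1, had nearly equal group means, at 358 ± 15.4 CPM in CBD, 358 ± 16.01 CPM in SNL and 356 ± 39.5 CPM in Sham (SD, n = 3 each). Nfe2l1 had 370.00, 363 and 340.4 CPM in the CBD libraries, 342, 374 and 357 CPM in the SNL libraries and 371, 312 and 387 CPM in the Sham libraries. Its log2 fold changes were 0.004 for SNL against Sham (SE 0.11, adjusted p = 0.99; 0.091 with offsets), 0.001 for CBD against SNL (SE 0.11, adjusted p = 0.998; 0.028 with offsets) and 0.006 for CBD against Sham (SE 0.11, adjusted p = 0.988; 0.12 with offsets). Nfe2l2 had 21.9, 17.2 and 17.3 CPM in the CBD libraries, 17.1, 22.7 and 16.6 CPM in the SNL libraries and 16.9, 18.1 and 17.8 CPM in the Sham libraries, with log2 fold changes between -0.001 and 0.095 for this oxidative stress factor. Ddi2 had 73.3, 79.4 and 79.5 CPM in the CBD libraries, 64.03, 70.3 and 66.6 CPM in the SNL libraries and 73.7, 81.3 and 77.2 CPM in the Sham libraries. This protease, which cuts Nfe2l1 into its active form, was lower in every SNL library than in every Sham and every CBD library, with a log2 fold change of -0.21 for SNL against Sham (SE 0.089, adjusted p = 0.339; -0.082 with offsets) and 0.21 for CBD against SNL (SE 0.089, adjusted p = 0.348; 0.008 with offsets). Keap1 had 83.5, 61.3 and 58.3 CPM in the CBD libraries, 75.9, 78.9 and 77.1 CPM in the SNL libraries and 94.5, 85.1 and 77.9 CPM in the Sham libraries. For this adaptor that marks Nfe2l2 for degradation, the log2 fold change was -0.34 for CBD against Sham (SE 0.14, adjusted p = 0.272; -0.085 with offsets). Maff had 0.975, 0.722 and 0.869 CPM in the CBD libraries, 1.05, 2.10 and 1.38 CPM in the SNL libraries and 1.53, 1.21 and 1.78 CPM in the Sham libraries. CBD lay below both other groups for this small Maf partner of the Nfe2 factors, at a level near 1 CPM, and the log2 fold change was -0.82 for CBD against SNL (SE 0.34, adjusted p = 0.341).

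Of 5 assembly factors of the core particle, Psmg1, Psmg2, Psmg3, Psmg4 and Pomp, all were above 0 in SNL against Sham (median log2 fold change 0.30) and all below 0 in CBD against SNL (median -0.31), and with offsets for GC content and length the medians were 0.19, with 1 of the 5 below 0, and -0.26. Pomp had 81.1, 76.6 and 73.4 CPM in the CBD libraries, 103, 80.98 and 100.1 CPM in the SNL libraries and 60.2, 79.1 and 78.2 CPM in the Sham libraries. SNL lay above Sham in every library for this factor, which matures the core particle, with a log2 fold change of 0.39 for SNL against Sham (SE 0.13, adjusted p = 0.27) and -0.30 for CBD against SNL (SE 0.13, adjusted p = 0.358). Psmg2 had 10.4, 8.51 and 9.79 CPM in the CBD libraries, 14.3, 12.6 and 12.1 CPM in the SNL libraries and 11.5, 14.1 and 11.5 CPM in the Sham libraries. CBD lay below both other groups for this alpha-ring chaperone, with a log2 fold change of -0.44 for CBD against SNL (SE 0.15, adjusted p = 0.308) and -0.37 for CBD against Sham (SE 0.15, adjusted p = 0.265). Among subunits with other names and reversible partners, Sem1 had 29.99, 24.4 and 19.8 CPM in the CBD libraries, 34.7, 27.9 and 35.1 CPM in the SNL libraries and 22.03, 27.7 and 28.8 CPM in the Sham libraries. For this smallest lid subunit the groups overlapped, with a log2 fold change of -0.39 for CBD against SNL (SE 0.17, adjusted p = 0.35). Uchl5 had 35.9, 34.5 and 34.9 CPM in the CBD libraries, 42.96, 34.8 and 37.9 CPM in the SNL libraries and 20.7, 25.9 and 33.8 CPM in the Sham libraries. This deubiquitinase of the base was higher in every CBD and SNL library than in every Sham library, with a log2 fold change of 0.52 for SNL against Sham (SE 0.16, adjusted p = 0.25) and 0.39 for CBD against Sham (SE 0.16, adjusted p = 0.282; 0.17 with offsets). Ube3c had 85.8, 81.6 and 85.1 CPM in the CBD libraries, 72.96, 74.99 and 66.9 CPM in the SNL libraries and 85.6, 93.01 and 88.3 CPM in the Sham libraries. SNL lay below both other groups for this ubiquitin ligase, with a log2 fold change of -0.31 for SNL against Sham (SE 0.088, adjusted p = 0.232) and 0.23 for CBD against SNL (SE 0.088, adjusted p = 0.321; 0.085 with offsets).

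The subunits of the immunoproteasome that were not members were low. Psmb8 had 8.72, 4.13 and 4.11 CPM in the CBD libraries, 3.21, 6.31 and 6.48 CPM in the SNL libraries and 4.79, 7.03 and 7.29 CPM in the Sham libraries. Psmb9 had 4.39, 1.96 and 1.795 CPM in the CBD libraries, 1.75, 4.52 and 2.82 CPM in the SNL libraries and 1.73, 4.45 and 2.91 CPM in the Sham libraries. Groups overlapped for both in every comparison, and the smallest adjusted p was 0.782. Of 7 genes listed as activators and inhibitor, a list that also held Zfand5 and Akirin2, 0 had an unadjusted p under 0.05 in any comparison. Over all genes, 5.83% were higher and 7.96% lower in SNL than in Sham, and 6.5% and 7.2% in CBD than in SNL. For CBD against Sham these shares were 7.41% and 8.87%. Psme4 had 49.3, 59.04 and 66.2 CPM in the CBD libraries, 50.9, 52.5 and 48.4 CPM in the SNL libraries and 51.04, 57.8 and 58.3 CPM in the Sham libraries, and this activator had overlapping groups. Psmf1 had 29.5, 25.6 and 26.6 CPM in the CBD libraries, 29.6, 24.7 and 27.4 CPM in the SNL libraries and 29.98, 27.8 and 34.3 CPM in the Sham libraries, also with overlap, for an inhibitor. Among ubiquitin genes and their activating enzymes, Uba6 had 26.6, 22.5 and 24.7 CPM in the CBD libraries, 19.3, 21.8 and 16.3 CPM in the SNL libraries and 13.4, 15.6 and 20.04 CPM in the Sham libraries. CBD lay above both other groups, with a log2 fold change of 0.59 for CBD against Sham (SE 0.17, adjusted p = 0.213; 0.27 with offsets) and 0.36 for CBD against SNL (SE 0.17, adjusted p = 0.37; 0.071 with offsets). In the list of shuttle receptors and partners of the segregase Vcp, Ubxn1 had 52.8, 49.6 and 45.9 CPM in the CBD libraries, 68.9, 63.7 and 72.8 CPM in the SNL libraries and 57.01, 60.97 and 54.4 CPM in the Sham libraries. SNL lay above both other groups for this Vcp cofactor, and the log2 fold change was -0.47 for CBD against SNL (SE 0.098, adjusted p = 0.306; -0.21 with offsets), 0.25 for SNL against Sham (SE 0.098, adjusted p = 0.305) and -0.22 for CBD against Sham (SE 0.098, adjusted p = 0.31; -0.017 with offsets).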

How the data were processed

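Per the labels' protocols, total RNA from hippocampal tissue was extracted with TRIzol and RNA went into each library, made with a SMARTER mRNA-seq kit. The authors deposited 1 table of expected counts per gene for the 9 libraries. The submitters' processing notes list RSEM and GRCm39; the sources used here give no aligner, annotation release or read filter. Expected counts were rounded to whole numbers. Genes were kept by edgeR's filterByExpr (17967 of 57010), scaled by TMM and tested with edgeR's quasi-likelihood F test (edgeR 4.0.16, R 4.3.3), fitted to all 9 libraries by group, which leaves 6 residual degrees of freedom. The Benjamini-Hochberg adjustment ran over all genes tested and calls used an adjusted p under 0.05. Standard errors (SE) were taken from the F statistic, as the fold change on the log2 scale over its root. CPM uses TMM-scaled library sizes. DESeq2 1.42.0 was an alternative. Offsets for GC content and length were smooth trends per library (mgcv 1.9.3) on transcripts of GENCODE M21 (GRCm38), where 98.2% of tested genes and all 35 members had both. Within each group, every pair of libraries differed beyond sampling noise (lowest chi-square per gene 6.44). The members, lists and alternatives were chosen with earlier results of these data known. Named genes followed a rule: the catalytic subunits, the 4 smallest p-values in each direction per comparison, the highest and lowest level per length in each role, chaperones and inducible subunits, and the 2 smallest p-values per pathway list with Nfe2l1, Nfe2l2, Psmb8, Psmb9 and Sem1. A gene that this rule names is not reported here.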

Additional observations from a re-analysis of the deposited data

How the results depend on the processing

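With 3 libraries per group of 16972620 to 20470546 expected counts each, the SE of a member's log2 fold change was at least 0.088. No member passed an adjusted p under 0.05 in any comparison under edgeR with any alternative. The DESeq2 Wald test called 1 member, Psmd10 in SNL against Sham, and 363, 156 and 380 genes in SNL against Sham, CBD against SNL and CBD against Sham. Genes called by edgeR numbered 253, 1 and 56 with no filter on low counts, 2 in SNL against Sham with the threshold on the adjusted p at 0.1, 1 in CBD against Sham with only the 6 libraries compared, and 1, 2 and 20 without the 3 libraries with hypothalamic transcripts, where SNL 3 is alone in its group and is assumed to vary like the others. With each library left out in turn they ranged from 0 to 8, from 0 to 2 and from 0 to 17. The members' median log2 fold change ranged from 0.056 to 0.22 in SNL against Sham, from -0.19 to -0.10 in CBD against SNL and from -0.065 to 0.047 in CBD against Sham when 1 library was left out. With offsets for GC content and length it was 0.072, -0.054 and 0.006, and without the 3 libraries with hypothalamic transcripts 0.21, -0.24 and -0.019. Same-numbered libraries did not deviate together (correlations from -0.266 to 0.191), so the numbers were not taken as pairs. With the replicate number as a block the medians were 0.14, -0.15 and -0.011, and the block changed no call of a member. Members higher at an unadjusted p under 0.05 in SNL against Sham numbered 1 with the block (4.25% of all genes). They numbered 6 without the block (5.83%) and 3 with the offsets (6.4%). With offsets for GC content and length, 5, 7 and 11 of the 35 members turned direction in SNL against Sham, CBD against SNL and CBD against Sham, from log2 fold changes of up to 0.15, 0.18 and 0.28 in size. They included Psmd2 in SNL against Sham (0.006, and 0.006 with the replicate block as well), Psmd1 in CBD against SNL (-0.049 and -0.055) and Psmb6 in CBD against Sham (0.044 and 0.043). Without the 3 libraries with hypothalamic transcripts Psmd3, Psmd11 and Psmd2 turned in SNL against Sham (0.012, 0.062 and 0.096). With 1 library left out, the ranges that crossed 0 were -0.081 to 0.016 for Psmd2, -0.097 to 0.005 for Psmd1 and -0.066 to 0.001 for Psmd11 in SNL against Sham, -0.084 to 0.10 for Psmd1 in CBD against SNL and -0.109 to 0.093 for Psmb7 in CBD against Sham. The cause of these shifts was not tested.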
